A study of Homo sapiens with 18 samples.

Results

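Interferon regulatory factors (IRFs) are transcription factors that switch on interferons and the genes that interferons induce. The 7 members described here are IRF1, IRF2, IRF3, IRF5, IRF7, IRF8 and IRF9, taken by symbol from the 62754 genes of the count matrix. They were measured by RNA sequencing in EA.hy926, a human endothelial line made by fusing umbilical vein endothelial cells with the lung epithelial line A549. Cells received transfection reagent alone (Mock), non-targeting siRNA (siNT) or a pool of siRNAs against ELMO1 (siELMO1), with siRNA at 10 nM. All groups were kept in low serum overnight, and 48 h after transfection RNA was either taken (0 h) or poly(I:C) was added at 1 µg/ml and RNA taken 24 h later (24 h). Poly(I:C) mimics viral double-stranded RNA and activates the receptor TLR3. There were 3 libraries for each of 6 conditions, 18 together, all from 1 cell line.

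IRF3 and IRF7 are activated downstream of TLR3 and of cytosolic RNA sensors through the kinases TBK1 and IKBKE, and then induce IFNB1 and the type III interferons. IRF9 joins STAT2 in ISGF3, the complex that interferon receptors activate and that binds interferon-stimulated response elements (ISRE). IRF1 is an inducible activator, and IRF2 binds much the same elements and often acts as its antagonist. IRF5 and IRF8 are best known from immune cells.

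Library totals were 40374756 to 73850946 estimated counts. ELMO1 was measured in each library first, in CPM, counts scaled to the TMM-adjusted library total. At 0 h it was at 3.04, 2.99 and 3.03 CPM in Mock, 2.85, 2.66 and 3.32 in siNT and 0.299, 0.301 and 0.419 in siELMO1. At 24 h Mock had 1.52, 2.98 and 2.45 CPM, siNT had 3.38, 2.98 and 3.59 and siELMO1 had 0.288, 0.155 and 0.360, so that siELMO1 lay below both controls at each time. Of 12 endothelial marker genes, 10 averaged at least 1 CPM, against 3 of 9 markers of A549-type epithelium, 1 of 10 myeloid markers and 0 of 7 lymphoid markers. Summed endothelial markers were higher in siELMO1 (2856 to 3128 CPM at 0 h, 2646 to 3216 at 24 h) than in siNT (2017 to 2106 and 1895 to 2117) or Mock (1997 to 2125 and 1488 to 1881). Summed epithelial markers at 0 h were at 1519.5 to 1542 CPM in Mock, 1883 to 1915 in siNT and 2104 to 2228 in siELMO1, and at 24 h at 845 to 864, 1013 to 1058 and 1101 to 1317. The part of these markers in the results was not tested. In bulk RNA, fewer cells of a type and less RNA per cell cannot be told apart.

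The members are protein-coding genes on 7 chromosomes (GENCODE v44, GRCh38). IRF1 (ENSG00000125347.15) is at chr5:132440440-132508719 on the minus strand. IRF2 (ENSG00000168310.12) is at chr4:184385702-184474558 on the minus strand. IRF3 (ENSG00000126456.16) is at chr19:49659569-49665875 on the minus strand. IRF5 (ENSG00000128604.21) is at chr7:128937457-128950038 on the plus strand. IRF7 (ENSG00000185507.21) is at chr11:612553-615983 on the minus strand. IRF8 (ENSG00000140968.12) is at chr16:85899116-85922606 on the plus strand. IRF9 (ENSG00000213928.10) is at chr14:24161234-24168043 on the plus strand. The antisense gene IRF1-AS1 overlaps 48263 bases of IRF1, and BCL2L12 overlaps 734 bases of IRF3 on the opposite strand. The readthrough gene ENSG00000259529, at chr14:24147548-24166452 on the same strand as IRF9, shares 5219 bases of its span with IRF9 and also overlaps the neighbouring gene RNF31. Reads from shared exons cannot be told apart by gene, and this bears on each IRF9 value.

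RefSeq promoter windows (GRCh38.p14, 250 bases before to 50 after a start site) were matched for 4 of the 7 members: IRF1, IRF5, IRF8 and IRF9. The windows of IRF1 and IRF9 are shown because both genes rose with poly(I:C) and each window holds 1 match to the gamma-activated site (GAS), the STAT element TTCNNNGAA, searched on both strands. The match is in capitals, and each window is written 5′ to 3′ on the strand of its gene. That of IRF1 is chr5:132490724-132491023 on the minus strand, with the match at -124 to -116 from the start. That of IRF9 is chr14:24161015-24161314 on the plus strand, with the match at -63 to -55.
IRF1: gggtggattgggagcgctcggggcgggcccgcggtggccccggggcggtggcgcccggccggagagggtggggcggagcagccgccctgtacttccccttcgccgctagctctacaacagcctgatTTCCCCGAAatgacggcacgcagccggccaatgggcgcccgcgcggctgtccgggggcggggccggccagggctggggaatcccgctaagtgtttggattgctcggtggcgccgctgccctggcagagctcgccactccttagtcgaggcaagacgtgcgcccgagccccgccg
IRF9: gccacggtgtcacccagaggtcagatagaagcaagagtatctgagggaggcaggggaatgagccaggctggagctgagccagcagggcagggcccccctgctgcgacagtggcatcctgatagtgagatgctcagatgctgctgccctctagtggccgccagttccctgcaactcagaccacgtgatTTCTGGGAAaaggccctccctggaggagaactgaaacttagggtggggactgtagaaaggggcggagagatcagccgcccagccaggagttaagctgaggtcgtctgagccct
Among all 35116 windows of this length, 7.66% held the GAS letters. Neither window shown held the ISRE core letters GAAANNGAA, present in 8.11% of all windows, or the NF-kB letters GGGNNTTTC or GGGNATTCC, present in 5.56%. Of the 4 windows of IRF5, 1 held the ISRE core letters, and the 2 windows of IRF8 held none of the 3 motifs. A match of letters describes the window and does not show binding. Only these exact letters were searched, so the lack of a match does not show the lack of a site for the same factors.

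IRF3 had the highest mean of the members without poly(I:C), IRF7 the highest after it, and IRF5 and IRF8 were near or at 0 throughout. Levels of different genes were compared per length, as TPM, the transcript counts divided by transcript length and scaled to a fixed sum per library. In Mock at 0 h IRF3 led at 49.3 ± 1.89 TPM (SD, n = 3), followed by IRF1 at 37.6 ± 6.10, IRF2 at 21.5 ± 1.73, IRF7 at 15.4 ± 1.01 and IRF9 at 10.8 ± 2.50, and the libraries of neighbours in this order did not overlap. In siNT at 0 h IRF3 and IRF1 overlapped, at means of 49.6 and 47.1 TPM, as did IRF9 and IRF7 at 13.5 and 11.7 TPM. In siELMO1 at 0 h IRF3 was alone at the top at 59.99 TPM, while IRF1 and IRF2 overlapped at 33.2 and 27.3 TPM and IRF9 and IRF7 at 13.6 and 13.3 TPM.

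At 24 h IRF7 came first and IRF1 next in each transfection, without overlap. IRF7 stood at 450.3 ± 16.7 TPM in Mock, 269 ± 36.9 in siNT and 339 ± 19.5 in siELMO1 (SD, n = 3). IRF1 stood at 254 ± 26.1, 181 ± 41.8 and 211 ± 34.9 TPM. IRF9 held the third place in Mock and siNT, at 88.7 and 93.1 TPM, and the fifth in siELMO1, at 51.4 TPM. IRF3 and IRF2 overlapped in all 3 transfections at 24 h, and in Mock IRF9 overlapped IRF3 too.

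IRF8 had 0 counts in all 18 libraries. IRF5 had 0 counts in 17 libraries and 14 counts in siNT 24 h replicate 3, or 0.245 CPM there. For a count of 0 the upper limit of 3 counts lies between 0.0384 and 0.0753 CPM, depending on the library, and covers counting error only. Neither gene entered a test. The other 5 members passed the filter on low counts and would have done so at 0 h alone, since each was above 8 CPM in every library.

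**Figure D1:**
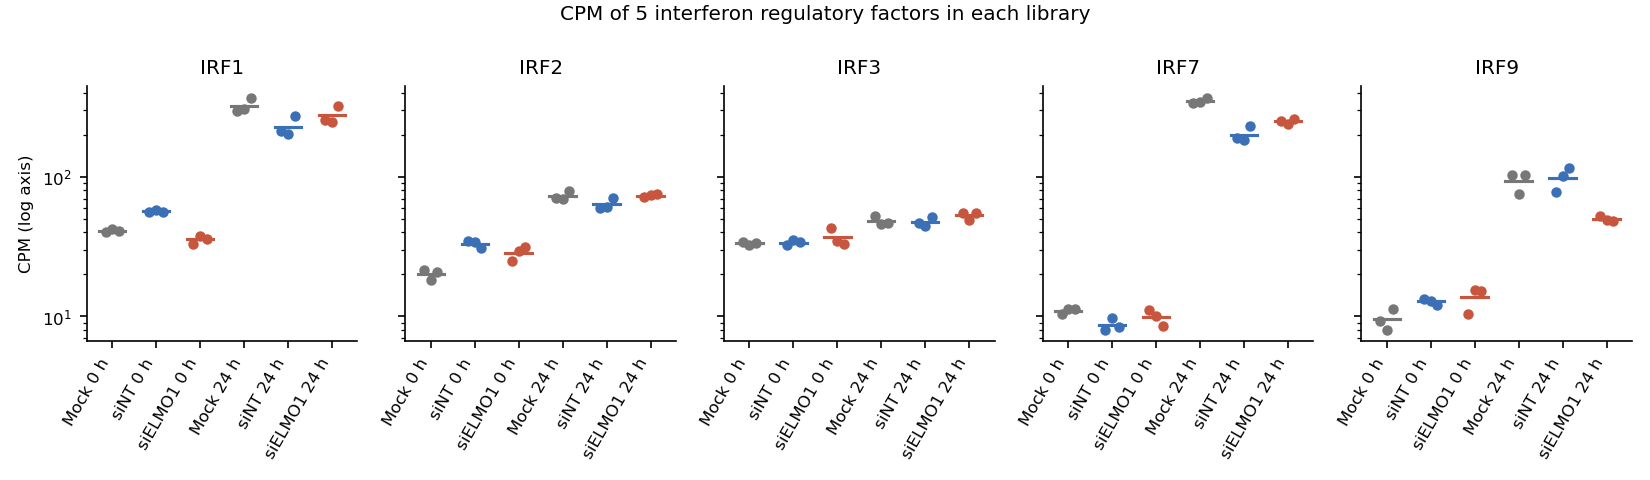
CPM of IRF1, IRF2, IRF3, IRF7 and IRF9 (log axis) in each of the 18 libraries, by condition; points are libraries. The mean of IRF7 in Mock goes from 11.0 to 351 CPM, while IRF3 lies between 32.6 and 55.2 CPM in all libraries.

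The comparison of 24 h with 0 h asks how each factor changed with poly(I:C), and this change is called the response. The 24 h libraries were taken 72 h after transfection, and no group without poly(I:C) was taken then. Effects of poly(I:C) and of 24 h more in culture therefore cannot be told apart. The study reports massive cell death in siNT cultures after poly(I:C), with much less in Mock and inhibited death in siELMO1. It gives this death as the likely reason for lower inflammatory gene expression in siNT. Contrasts with siNT after poly(I:C) may therefore compare cultures that differed in cell survival. The part of cell death in the results was not tested. All 5 tested members rose in Mock, siNT and siELMO1, and each 24 h library lay above each 0 h library of its transfection. Over the 15167 genes tested, 30.7% rose and 29.6% fell in Mock, 28.6% rose and 25.2% fell in siNT, and 28% rose and 26.9% fell in siELMO1 (edgeR quasi-likelihood test, Benjamini-Hochberg adjusted p under 0.05). The p-values measure the spread between libraries of 1 cell line.

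IRF3, which most cells hold at a steady level and activate by phosphorylation, showed the smallest rise of the 5. In Mock it was at 34.0, 32.7 and 33.5 CPM before and 52.3, 45.7 and 47.0 CPM after poly(I:C). In siNT it was at 32.6, 35.0 and 33.9 CPM before and 46.7, 44.4 and 51.2 CPM after, and in siELMO1 at 43.2, 34.7 and 33.1 CPM before and 55.2, 48.7 and 55.0 CPM after. Levels of the 3 transfections overlapped at each time. On the log2 scale (± SE, as for all log2 values that follow) the rise was 0.53 ± 0.09, adjusted p = 4.12e-05 (edgeR) in Mock, 0.49 ± 0.09, adjusted p = 0.000128 in siNT and 0.51 ± 0.09, adjusted p = 7.17e-05 in siELMO1. With IRF3 and BCL2L12 counted as 1 feature, tried after seeing the data because the strand setting of the counting is not given, the rise in siNT was 0.10 (adjusted p = 0.256) and was not called. BCL2L12 itself had means of 25.5 CPM at 0 h and 16.2 CPM at 24 h in siNT. Its own lower level at 24 h enters the sum, which does not show that IRF3 itself did not rise.

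IRF7, the interferon-inducible amplifier of interferon production, moved most. Its CPM in Mock went from 10.4, 11.3 and 11.3 to 340.0, 344 and 370.1. In siNT it went from 8.04, 9.70 and 8.38 to 189, 183 and 232, and in siELMO1 from 11.1, 10.00 and 8.59 to 253, 238 and 262. At 24 h the Mock libraries lay highest, those of siNT lowest and those of siELMO1 between them, without overlap. The rise was 31.9-fold in Mock (log2 4.99 ± 0.11, adjusted p = 7.79e-17, edgeR), 23.1-fold in siNT (4.53 ± 0.11, adjusted p = 5.63e-16) and 25.2-fold in siELMO1 (4.66 ± 0.11, adjusted p = 2.7e-16).

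IRF1, which NF-kB induces, stood at 40.05, 42.1 and 40.9 CPM in Mock at 0 h and at 296, 305 and 365 CPM after poly(I:C). In siNT it was at 56.5, 57.6 and 56.1 CPM before and 213, 203 and 273 CPM after. In siELMO1 it was at 33.3, 38.0 and 36.2 CPM before and 257, 249 and 323 CPM after. The siNT libraries thus started highest and had the lowest mean at 24 h. The rise was 7.85-fold in Mock (log2 2.97 ± 0.12, adjusted p = 2.86e-13, edgeR), 4.05-fold in siNT (2.02 ± 0.11, adjusted p = 7.48e-11) and 7.72-fold in siELMO1 (2.95 ± 0.12, adjusted p = 4.53e-13). IRF1-AS1 on the opposite strand rose too, and no call of IRF1 changed when both were counted as 1 feature.

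IRF2 was at 21.4, 18.1 and 21.0 CPM in Mock at 0 h and at 70.5, 69.8 and 78.8 CPM after poly(I:C). In siNT it was at 34.5, 34.4 and 30.8 CPM before and 60.2, 60.9 and 70.3 CPM after. In siELMO1 it was at 24.8, 29.4 and 31.6 CPM before and 71.6, 74.1 and 74.9 CPM after. Mock was lowest at 0 h, apart from both siRNA groups. The rise was 3.62-fold in Mock (log2 1.86 ± 0.09, adjusted p = 7.02e-12, edgeR), 1.92-fold in siNT (0.94 ± 0.09, adjusted p = 8.16e-08) and 2.58-fold in siELMO1 (1.37 ± 0.09, adjusted p = 6.01e-10).

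IRF9, the DNA-binding subunit of ISGF3, was at 9.34, 8.03 and 11.3 CPM in Mock at 0 h and at 103, 75.4 and 103 CPM after poly(I:C). In siNT it was at 13.4, 12.9 and 12.2 CPM before and 77.4, 101 and 116 CPM after. In siELMO1 it was at 10.4, 15.5 and 15.2 CPM before and 52.9, 48.9 and 48.2 CPM after, below every 24 h library of the other transfections. The rise was 9.80-fold in Mock (log2 3.29 ± 0.17, adjusted p = 2.25e-11, edgeR), 7.63-fold in siNT (2.93 ± 0.17, adjusted p = 1.6e-10) and 3.68-fold in siELMO1 (1.88 ± 0.17, adjusted p = 3.69e-08).

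**Figure D2:**
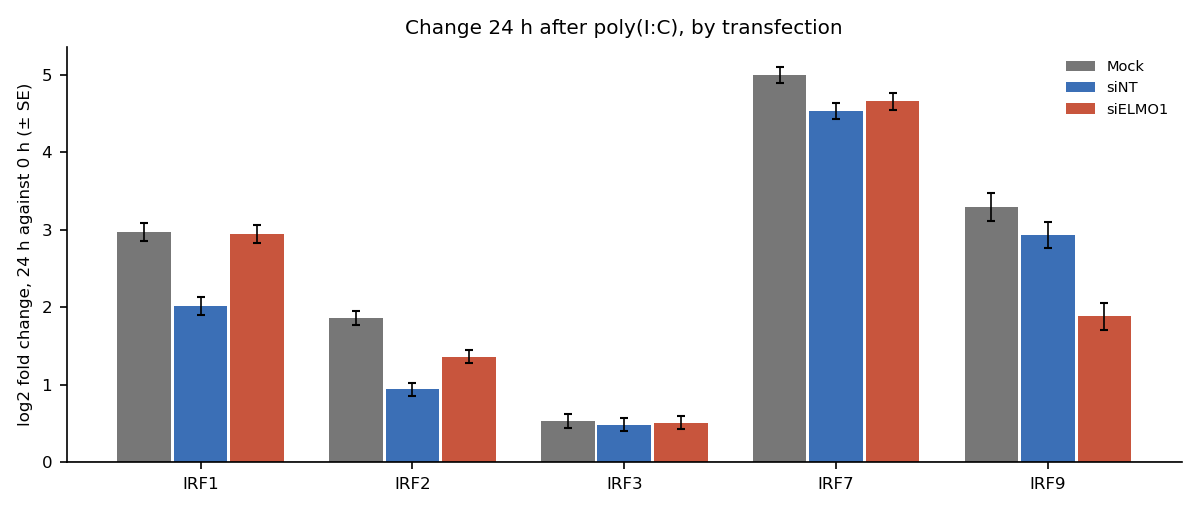
Log2 fold change of 24 h against 0 h for the 5 tested members in Mock, siNT and siELMO1; bars are edgeR estimates and whiskers ± SE. IRF7 has the highest bars (4.99 in Mock) and IRF3 the lowest (0.53 in Mock), and IRF1 and IRF2 have lower bars in siNT than in Mock.

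Whether these responses differed between transfections was tested as an interaction in the same fit. The 3 contrasts share conditions and are not independent. Between siNT and Mock, 3 of the 5 tested members rose less in siNT and 0 rose more, beside 16% of all genes lower and 15% higher. The difference on the log2 scale was -0.96 ± 0.15, adjusted p = 0.000125 (edgeR) for IRF1, -0.92 ± 0.12, adjusted p = 2.51e-05 for IRF2 and -0.46 ± 0.13, adjusted p = 0.0142 for IRF7. The IRF7 call was lost in 3 of 20 alternatives, namely with library totals, without Mock 0 h replicate 1 and without siNT 0 h replicate 2, where it was -0.38 (adjusted p = 0.053). IRF9 at -0.36 ± 0.23, adjusted p = 0.263 did not pass, but with ENSG00000259529 counted into it the difference was -0.98 (adjusted p = 3.25e-05) and was called in 12 of 12 fits without 1 library.

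Between siELMO1 and siNT, IRF1 and IRF2 rose more in siELMO1 and IRF9 rose less, beside 16.7% of all genes higher and 17.8% lower. The difference was 0.93 ± 0.15, adjusted p = 0.000138 (edgeR) for IRF1, 0.42 ± 0.12, adjusted p = 0.0133 for IRF2 and -1.05 ± 0.23, adjusted p = 0.00185 for IRF9. IRF3 at 0.03 ± 0.12, adjusted p = 0.896 and IRF7 at 0.12 ± 0.14, adjusted p = 0.529 did not pass. With IRF9 and ENSG00000259529 counted as 1 feature the sign turned, to 0.36 (adjusted p = 0.0494), and 10 of 12 fits without 1 library did not call that value (adjusted p up to 0.117).

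Between siELMO1 and Mock, IRF2 (-0.49 ± 0.13, adjusted p = 0.00687, edgeR) and IRF9 (-1.41 ± 0.23, adjusted p = 0.000223) rose less in siELMO1, beside 14.6% of all genes lower and 13.8% higher. For IRF2 the difference lay at 0 h, with means of 28.6 CPM in siELMO1 and 20.2 CPM in Mock. At 24 h its means were 73.5 and 73.0 CPM. IRF1 at -0.02 ± 0.15, adjusted p = 0.934, IRF3 at -0.02 ± 0.12, adjusted p = 0.936 and IRF7 at -0.34 ± 0.14, adjusted p = 0.0702 did not pass. For the sum of IRF9 and ENSG00000259529 the difference was -0.61 (adjusted p = 0.0027).

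Without poly(I:C), siRNA transfection itself went with differences in the family. The 3 comparisons at each time share libraries. In siNT against Mock at 0 h, IRF1 was 1.38-fold higher (log2 0.47 ± 0.11, adjusted p = 0.00165, edgeR), IRF2 1.65-fold higher (0.72 ± 0.09, adjusted p = 2.91e-06) and IRF7 lower by 1.27 times (-0.34 ± 0.10, adjusted p = 0.0097), with no overlap between the libraries. The IRF7 call was lost without siNT 0 h replicate 1, at -0.29 (adjusted p = 0.0503). IRF9 was higher by 0.42 ± 0.17, adjusted p = 0.0475, a call that 11 of 14 alternatives did not keep (adjusted p 0.0137 to 0.247 over all of them), among them those without Mock replicate 1 or 2 or any siNT replicate. Without Mock 0 h replicate 2 it was 0.27 (adjusted p = 0.247). With ENSG00000259529 counted into IRF9 it was 0.69 (adjusted p = 1.44e-05), called in 6 of 6 fits without 1 library. Of all genes 27.6% were higher and 24% lower, beside 3 of 5 members higher and 1 lower.

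In siELMO1 against siNT at 0 h, IRF1 was lower by 1.59 times (log2 -0.67 ± 0.11, adjusted p = 4.71e-05, edgeR), each siELMO1 library lying below each siNT library. IRF2 was at -0.22 ± 0.09, adjusted p = 0.0397 with overlapping libraries, and 5 of 14 alternatives did not call it, among them those without siELMO1 replicate 1 or 2 or siNT replicate 1 or 2. Without siELMO1 0 h replicate 1 it was -0.12 (adjusted p = 0.22). IRF3 (0.13 ± 0.09), IRF7 (0.19 ± 0.11) and IRF9 (0.08 ± 0.17) did not pass. Counted with an overlapping gene, IRF3 with BCL2L12 turned to -0.40 (adjusted p = 0.000128) and IRF9 with ENSG00000259529 to -0.46 (adjusted p = 0.000558). BCL2L12 itself had means of 7.86 CPM in siELMO1 and 25.5 CPM in siNT, so its own difference enters the IRF3 sum. Of all genes 31.3% were higher and 31.3% lower, so 2 of 5 members lower is near the background.

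In siELMO1 against Mock at 0 h, IRF2 was 1.42-fold higher (log2 0.50 ± 0.09, adjusted p = 0.000163, edgeR), each siELMO1 library lying above each Mock library. IRF9 was at 0.50 ± 0.17, adjusted p = 0.0216 with overlapping libraries, and 6 of 14 alternatives did not call it, among them those without Mock replicate 1 or 2 or siELMO1 replicate 2 or 3. Without Mock 0 h replicate 2 it was 0.36 (adjusted p = 0.13). IRF1 (-0.20 ± 0.11), IRF3 (0.15 ± 0.09) and IRF7 (-0.15 ± 0.10) did not pass. For IRF1 each siELMO1 library nevertheless lay below each Mock library. Of 14 alternatives, 2 called IRF1 lower and 1 called IRF3 higher. Of all genes 27.9% were higher and 22.4% lower.

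At 24 h, siNT lay below Mock for IRF7 by 1.75 times (log2 -0.80 ± 0.09, adjusted p = 8.72e-07, edgeR) and for IRF1 by 1.40 times (-0.49 ± 0.11, adjusted p = 0.00102), with no overlap for either. IRF2 (-0.19 ± 0.09), IRF3 (-0.03 ± 0.09) and IRF9 (0.06 ± 0.16) did not pass. With ENSG00000259529 counted into it IRF9 turned to -0.29 (adjusted p = 0.0172), which was not called without Mock replicate 2 or siNT replicate 2. Of all genes 25.2% were higher and 24.9% lower, beside 2 of 5 members lower. The part of cell death in these siNT values was not tested.

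In siELMO1 against siNT at 24 h, IRF7 was 1.25-fold higher (log2 0.32 ± 0.09, adjusted p = 0.00557, edgeR) and IRF9 lower by 1.96 times (-0.97 ± 0.16, adjusted p = 6.14e-05), each without overlap. IRF1 was 1.20-fold higher (0.27 ± 0.11, adjusted p = 0.044), but its libraries overlapped and 7 of 14 alternatives did not call it, among them those without siNT replicate 1 or 2 or siELMO1 replicate 3. Without siELMO1 24 h replicate 3 the IRF1 value was 0.14 (adjusted p = 0.281). IRF2 at 0.20 ± 0.09, adjusted p = 0.0577 did not pass, though each siELMO1 library lay above each siNT library and 5 of 14 alternatives called it. IRF3 was at 0.16 ± 0.09. Of all genes 26% were higher and 26.5% lower.

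In siELMO1 against Mock at 24 h, IRF7 was lower by 1.40 times (log2 -0.49 ± 0.09, adjusted p = 0.000213, edgeR) and IRF9 by 1.88 times (-0.91 ± 0.16, adjusted p = 0.000149), beside 21.6% of all genes higher and 22% lower. IRF1 (-0.22 ± 0.11), IRF2 (0.01 ± 0.09) and IRF3 (0.13 ± 0.09) did not pass. IRF7 in siELMO1 was thus between its levels in siNT and Mock and differed from both.

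**Figure D3:**
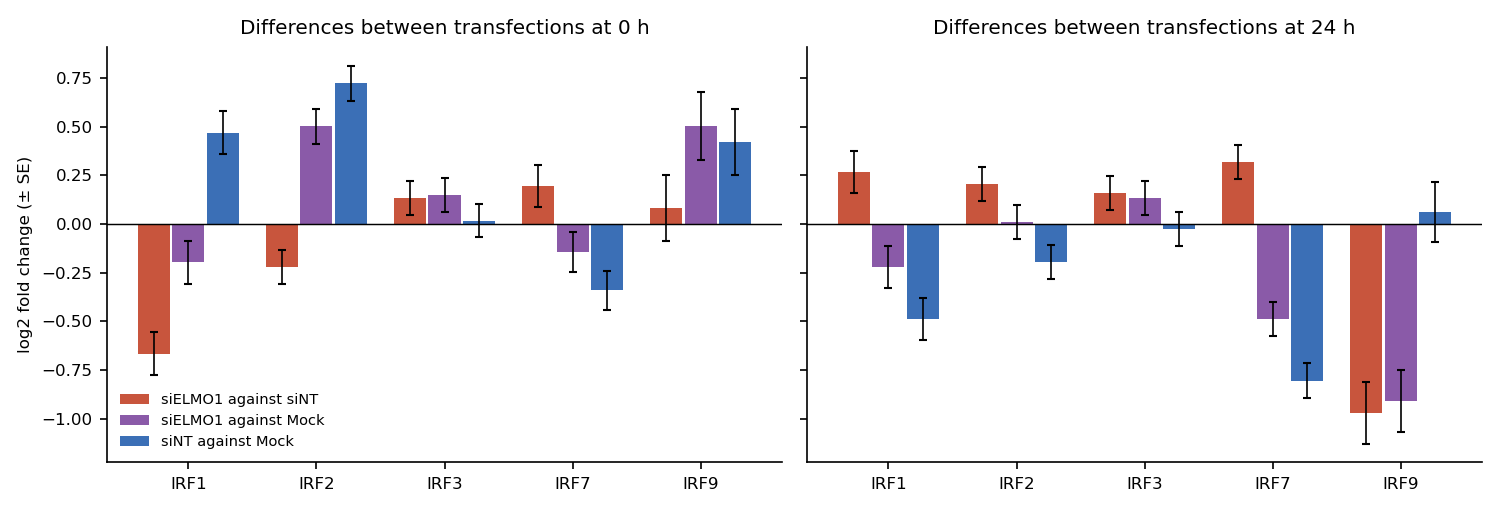
Log2 fold change between transfections for the 5 tested members at 0 h and 24 h; bars are edgeR estimates and whiskers ± SE. At 24 h IRF7 in siNT is at -0.80 against Mock, and IRF9 in siELMO1 is at -0.97 against siNT and -0.91 against Mock.

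The lower IRF9 count in siELMO1 than in siNT at 24 h went with a higher count of the readthrough gene (0.73 ± 0.28, adjusted p = 0.0371, edgeR), while against Mock the readthrough gene was at -0.01 ± 0.28, adjusted p = 0.979. At 24 h ENSG00000259529 had 6316, 5518 and 5110 counts in siELMO1, 4260, 2444 and 2611 in siNT and 2878, 9295 and 4473 in Mock. IRF9 had 3487, 3147 and 2411 counts in siELMO1, 4047, 5634 and 6602 in siNT and 5394, 4549 and 6040 in Mock. IRF9 took 35.6%, 36.3% and 32.1% of the sum of both in siELMO1, 48.7%, 69.7% and 71.7% in siNT and 65.2%, 32.9% and 57.5% in Mock. The share thus differed widely between libraries of 1 condition in Mock and siNT, with Mock replicate 2 in the range of siELMO1.

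With both genes counted as 1 feature, chosen after seeing the data, siELMO1 against siNT at 24 h was -0.10 (adjusted p = 0.403) by edgeR and the difference was no longer called. siELMO1 against Mock at 24 h was -0.39 (adjusted p = 0.00288). The rise with poly(I:C) was called in each transfection, at 2.70 in Mock, 1.73 in siNT and 2.09 in siELMO1. With RNF31 added as well, siELMO1 against siNT at 24 h was -0.16 (adjusted p = 0.0167). RNF31 ends before the start of IRF9 and itself had means of 51.1 CPM in siELMO1 and 63.8 CPM in siNT at 24 h. Its own difference enters this sum, which does not show a difference of IRF9 itself. Fewer IRF9 transcripts and another division of shared reads cannot be told apart from these counts.

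**Figure D4:**
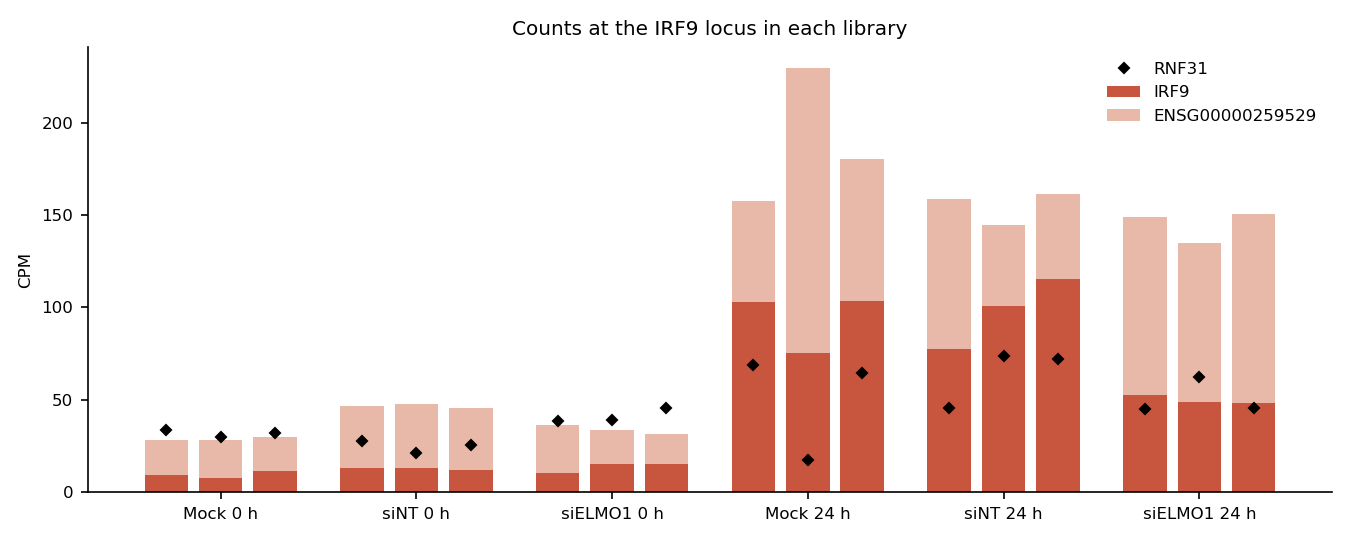
CPM of IRF9 and of ENSG00000259529 (stacked bars) and of RNF31 (diamonds) in each library, by condition. In siELMO1 at 24 h IRF9 is at 52.9, 48.9 and 48.2 CPM and ENSG00000259529 at 95.8, 85.8 and 102 CPM, against 77.4, 101 and 116 and 81.4, 43.7 and 45.7 CPM in siNT.

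The transcript estimates of the members varied in how steady they were. IRF1-201, the MANE Select transcript of IRF1, held the largest share of length-scaled counts in 18 of 18 libraries, at 36.2% to 83.5%. The MANE Select transcript of IRF7 led in 14 of 18 libraries and held 54.0% to 64.3% at 24 h. For IRF2 the leading transcript was one of 8, for IRF3 one of 4 and for IRF9 one of 11, depending on the library. The MANE Select transcript of IRF9 held a median of 1.11% and led in 1 library. A retained-intron model led for IRF9 in 11 of 18 libraries, and no isoform change was read from these estimates.

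The balance of the activator IRF1 to its antagonist IRF2 was taken as the log2 ratio of their counts in each library. In Mock it was 0.90, 1.22 and 0.96 at 0 h and 2.07, 2.13 and 2.21 at 24 h. In siNT it was 0.71, 0.74 and 0.86 before and 1.82, 1.74 and 1.96 after, and in siELMO1 0.43, 0.37 and 0.19 before and 1.84, 1.75 and 2.11 after. At 0 h the 3 transfections did not overlap, with Mock highest and siELMO1 lowest. The mean rose by 1.11 in Mock, 1.07 in siNT and 1.57 in siELMO1, each with a two-sided exact permutation p of 0.1 and 0.129 adjusted over 9 comparisons. With 3 against 3 libraries 0.1 is the smallest p that this permutation test can give, so it cannot reach 0.05 however far apart the libraries lie. At 24 h siELMO1 and siNT differed by 0.06 (exact permutation p = 0.6).

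**Figure D5:**
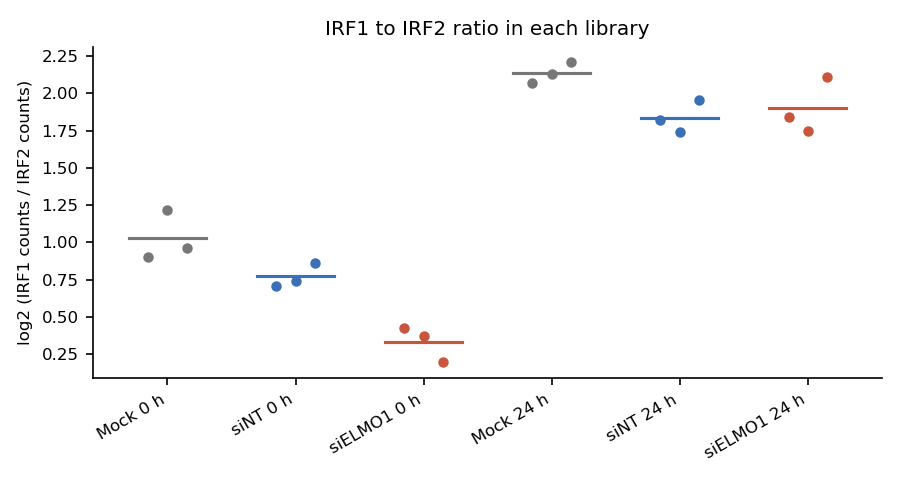
Log2 ratio of IRF1 to IRF2 counts in each library, by condition; points are libraries. At 0 h siELMO1 lies at 0.43, 0.37 and 0.19, below siNT and Mock, and all 24 h libraries lie above all 0 h libraries.

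Upstream of IRF3 and IRF7, 16 genes of RNA sensing and kinase signalling were tested. With poly(I:C) 14 rose and 1 fell in Mock, 15 rose and 0 fell in siNT, and 13 rose and 0 fell in siELMO1, with median log2 fold changes of 1.35, 0.96 and 1.08. The median over all genes was within 0.02 of 0 in each, and 30.7%, 28.6% and 28% of all genes rose. TLR3, the endosomal receptor of double-stranded RNA, rose by 3.11 ± 0.12 in Mock, 2.34 ± 0.11 in siNT and 2.96 ± 0.12 in siELMO1. The kinase gene IKBKE rose by 1.98 ± 0.05, 1.76 ± 0.05 and 1.74 ± 0.05 in the same order, and TBK1 by 0.51 ± 0.07, 0.17 ± 0.07 and 0.27 ± 0.07. MAVS, the adaptor of the cytosolic sensors, was at -0.42 ± 0.06, adjusted p = 1.97e-05 (edgeR) in Mock, -0.14 ± 0.06, adjusted p = 0.0651 in siNT and -0.02 ± 0.06, adjusted p = 0.799 in siELMO1. In siELMO1 against siNT at 24 h 9 of the list were higher and 1 lower, beside 26% and 26.5% of all genes. There IKBKE was at 0.93 ± 0.05, adjusted p = 1.93e-10 (edgeR) and TLR3 at 0.32 ± 0.11, adjusted p = 0.0182. At 0 h 7 of the list were higher in siELMO1 than in siNT and 6 lower, beside 31.3% and 31.3% of all genes. IKBKE already had means of 30.1 CPM in siELMO1 and 15.6 CPM in siNT at 0 h, while TLR3 had 19.9 and 24.7 CPM.

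Downstream, the interferons that IRF3 and IRF7 induce were at or near 0 before poly(I:C). IFNB1 had 0 counts in each 0 h library except siELMO1 replicate 3, which had 3 counts. At 24 h the Mock libraries had 20.4, 21.3 and 27.5 CPM of it, those of siNT 1.70, 1.43 and 1.91 and those of siELMO1 5.81, 5.52 and 11.6. IFNL1, a type III interferon, had 0 counts in all 0 h libraries. At 24 h it stood at 7.75, 7.59 and 8.29 CPM for Mock, 0.459, 0.679 and 0.770 for siNT and 2.58, 2.08 and 3.76 for siELMO1. Both genes were highest in Mock and lowest in siNT, without overlap. For IFNB1 siNT against Mock was -3.78 ± 0.32, adjusted p = 4.91e-07 (edgeR), siELMO1 against siNT 2.18 ± 0.31, adjusted p = 5.1e-05 and siELMO1 against Mock -1.60 ± 0.29, adjusted p = 0.000506. For IFNL1 they were -3.62 ± 0.29, adjusted p = 9.55e-07, 2.13 ± 0.28, adjusted p = 5.43e-05 and -1.49 ± 0.26, adjusted p = 0.000589. Of the 8 listed interferons, 3 passed the filter, and the third, IFNE, an epithelial interferon named here after its values were seen, did not share these calls. IFNE was at -1.38 ± 0.34, adjusted p = 0.0027 in siELMO1 against siNT at 24 h and at 0.68 ± 0.34, adjusted p = 0.102 in siNT against Mock, and its poly(I:C) response was not called in Mock (0.76), siNT (0.62) or siELMO1 (0.29).

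Among receptor genes and partners of IRF9, 11 of 13 tested rose and 1 fell in Mock, 8 rose and 1 fell in siNT, and 12 rose and 0 fell in siELMO1. Over all genes 30.7% rose and 29.6% fell in Mock, 28.6% and 25.2% in siNT, and 28% and 26.9% in siELMO1. Median log2 fold changes of the list were 0.65, 0.40 and 0.79. STAT2 rose by 3.67 ± 0.09, 2.96 ± 0.08 and 2.99 ± 0.08 in Mock, siNT and siELMO1. In siELMO1 against siNT at 24 h 3 of the list were higher and 2 lower (median 0.03, highest 0.51), beside 26% and 26.5% of all genes. STAT2 was at 0.51 ± 0.08, adjusted p = 2.51e-05 (edgeR) there, so that STAT2 was called higher and its partner IRF9, by its own count, lower. STAT2 already had means of 69.0 CPM in siELMO1 and 49.7 CPM in siNT at 0 h.

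All 29 tested of 30 listed ISGF3 targets rose in Mock, siNT and siELMO1, with median log2 fold changes of 4.76, 3.90 and 4.56. No target had 0 counts in every 0 h library of a transfection. Any target under 1 CPM in all 0 h libraries passed the filter only through 24 h, so its rise was fixed in advance. How many such targets there were was not counted. The shares of all genes that rose were 30.7%, 28.6% and 28%. At 24 h 27 were lower and 1 higher in siNT than in Mock, beside 24.9% and 25.2% of all genes. In siELMO1 against siNT 20 were higher and 0 lower (median 0.38), beside 26% and 26.5%. In siELMO1 against Mock 1 was higher and 9 were lower, beside 21.6% and 22%. At 0 h 12 were higher and 3 lower in siNT than in Mock, beside 27.6% and 24% of all genes, and 4 were higher and 13 lower in siELMO1 than in siNT, beside 31.3% and 31.3%. Between siELMO1 and siNT the response differed for 18 that rose more in siELMO1 and 1 that rose less, beside 16.7% and 17.8% of all genes. Between siNT and Mock it differed for 21 that rose less in siNT and 0 that rose more, beside 16% and 15%. ISG15, a ubiquitin-like modifier, was at 762 ± 36.9 CPM in Mock, 381 ± 65.5 in siNT and 646 ± 48.4 in siELMO1 at 24 h (SD, n = 3), and siELMO1 against siNT was 0.76 ± 0.13, adjusted p = 8.1e-05 (edgeR). IFIT1, an antiviral RNA-binding protein, was at 0.38 ± 0.11, adjusted p = 0.00771 in the same comparison.

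Of 26 tested genes among 28 listed IRF1 targets, 25 rose and 1 fell in Mock, 25 rose in siNT and 26 in siELMO1, with medians of 3.52, 2.48 and 3.07. The shares of all genes that rose were 30.7%, 28.6% and 28%. Among the tested targets, 3 in Mock, 3 in siNT and 4 in siELMO1 had 0 counts in every 0 h library of that transfection. A gene under 1 CPM in all 0 h libraries, such as CXCL10 with 0 counts there, passed the filter only through 24 h. Its rise was thereby fixed in advance. The gene that fell, named after its values were seen, was CIITA, the activator of MHC class II genes (-0.82 ± 0.35, adjusted p = 0.0492, edgeR). At 24 h 21 were lower and 0 higher in siNT than in Mock (median -0.69), beside 24.9% and 25.2% of all genes. In siELMO1 against siNT at 24 h 14 were higher and 0 lower (median 0.30), beside 26% and 26.5%. In siELMO1 against Mock at 24 h 1 was higher and 12 were lower (median -0.31), beside 21.6% and 22%. At 0 h 4 were higher and 12 lower in siELMO1 than in siNT, beside 31.3% and 31.3% of all genes. The response was larger in siELMO1 than in siNT for 12 and smaller for 1, beside 16.7% and 17.8% of all genes. It was smaller in siNT than in Mock for 15 and larger for 0, beside 16% and 15%. CXCL10, a chemokine, had 0 counts in each 0 h library and was at 29.3 ± 5.36 CPM in Mock, 7.60 ± 1.29 in siNT and 29.99 ± 9.51 in siELMO1 at 24 h (SD, n = 3). GBP1, an interferon-induced GTPase, was at -1.13 ± 0.11, adjusted p = 3.1e-07 (edgeR) in siNT and -1.01 ± 0.11, adjusted p = 1.25e-06 in siELMO1 against Mock, and at 0.12 ± 0.11, adjusted p = 0.387 in siELMO1 against siNT. PSMB9, an immunoproteasome subunit, was at -0.54 ± 0.09, adjusted p = 0.00011 in siNT against Mock and 0.20 ± 0.09, adjusted p = 0.0753 in siELMO1 against siNT.

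Of 17 tested genes among 21 listed IRF partners and repressors, 9 rose and 4 fell in Mock, 8 rose and 3 fell in siNT, and 8 rose and 4 fell in siELMO1. Over all genes the shares were 30.7% and 29.6% in Mock, 28.6% and 25.2% in siNT and 28% and 26.9% in siELMO1. In the list the shares that rose were above these, and the shares that fell were near or below them. No test of the list was run. In siELMO1 against siNT 5 of the list were higher and 7 lower at 0 h, beside 31.3% and 31.3% of all genes. At 24 h 3 were higher and 5 lower (lowest -0.41), beside 26% and 26.5%. IRF2BP2, a corepressor that binds IRF2, was at -0.60 ± 0.04, adjusted p = 9.15e-10 (edgeR) in siELMO1 against siNT at 0 h and at -0.41 ± 0.04, adjusted p = 3.82e-07 at 24 h.

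Over the 18 libraries, Pearson r between the log2 CPM of members ranged from 0.84 for IRF9 with IRF3 to 0.98 for IRF7 with IRF1. The libraries share the step from 0 h to 24 h, which all 5 members follow. Among 12875 genes with a symbol and a mean of at least 1 CPM, the most similar to IRF1 were TDRD7, NFKBIA and TNFAIP3 (r = 0.997, 0.997 and 0.997) and to IRF7 ADAR, LAP3 and RELB (r = 0.998, 0.997 and 0.997). They were LGALS8, DYNLT1 and GTF2B (r = 0.989, 0.988 and 0.986) for IRF2, SLC2A6, PLEKHO2 and DLL1 (r = 0.963, 0.958 and 0.957) for IRF3 and PLAUR, BTN2A1 and AMOTL2 (r = 0.986, 0.985 and 0.977) for IRF9.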

How the data were processed

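RNA was extracted from EA.hy926 cells, and stranded mRNA libraries were sequenced as paired ends. Per the labels and the study's methods, the authors aligned reads with STAR to GRCh38 and quantified GENCODE v44 genes with StringTie. The deposited gene and transcript matrices hold estimated counts, not scaled for depth. The read length passed to the counting step and its strand setting are not given in the sources used here. Groups came from the labels, and the methods call the 3 libraries of a condition biological replicates.

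Genes passed with 100 or more counts in all and 1 CPM or more in any library (15167 of 62754). edgeR 4.0.16 in R 4.3.3 fitted 1 mean per condition over 18 libraries with TMM factors. Its quasi-likelihood test was made for 12 comparisons, Benjamini-Hochberg adjusted over all tested genes and called under 0.05. The common biological coefficient of variation was 12.2%. TPM and transcript shares used GENCODE v44 transcript lengths. The fitting step was tested on simulated data.

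The members, gene lists and named genes were chosen with earlier results of these data known. Named genes are the 7 members, ELMO1, 14 pathway genes (1 is not reported here), genes overlapping a member and the 3 genes most correlated with each tested member. Alternatives were library totals, upper-quartile factors, DESeq2 1.42.0, limma-voom 3.58.1, other filters, fits of the compared groups alone, a replicate block and leaving out each library. Pairing by replicate number was checked through correlated deviations from condition means. Over all tested genes 0 of 15 pairs of conditions had every r over 0.1. Over the 9644 genes with a mean of at least 10 CPM, a limit chosen after seeing the data, 2 had, and 1 of these, siNT and Mock at 24 h, is a comparison made here. The block changed no member call in it.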

Additional observations from a re-analysis of the deposited data

Results flagged for a closer look

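The poly(I:C) response of a member differed between transfections, by a test of the difference itself (edgeR interaction, log2 scale), in 8 cases. Between siNT and Mock these were IRF1 at -0.96, IRF2 at -0.92 and IRF7 at -0.46, smaller in siNT. Between siELMO1 and siNT they were IRF1 at 0.93 and IRF2 at 0.42, larger in siELMO1, and IRF9 at -1.05. Between siELMO1 and Mock they were IRF2 at -0.49 and IRF9 at -1.41. For IRF1 the responses of 2.02 in siNT and 2.95 in siELMO1 came from means of 56.7 and 35.8 CPM at 0 h and 229.6 and 276 CPM at 24 h. IRF2 in Mock, siNT and siELMO1 had means of 20.2, 33.3 and 28.6 CPM at 0 h and 73.0, 63.8 and 73.5 CPM at 24 h. With IRF9 and ENSG00000259529 counted as 1 feature, the IRF9 differences were 0.36 between siELMO1 and siNT and -0.61 between siELMO1 and Mock. The part of cell death in siNT after poly(I:C) was not tested for any of these differences. Conditions of 3 libraries were not searched for single outlying values.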

How the results depend on the processing

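Of 930 alternative values computed for 60 member differences, 50 changed a call and 0 reversed, in 13 differences of which 0 were poly(I:C) responses. The number of members called moved at 0 h and also at 24 h, where IRF1 and IRF2 changed calls in siELMO1 against siNT. The numbers of members given next are for 0 h. For siELMO1 against Mock it was 2, and 1 with limma-voom or with IRF9 summed with ENSG00000259529. With 1 library left out it was 1 to 2, the lower number without Mock replicate 1 or 2 or siELMO1 replicate 2. For siELMO1 against siNT it was 2, and 1 in the fit of those groups alone. With 1 library left out it was 1 to 3, the lowest without siNT replicate 1 or siELMO1 replicate 1 or 2. For siNT against Mock it was 4 and ranged from 2, without siNT replicate 1, to 4. With the replicate block 2 calls were gained, both at 24 h: IRF2 in siELMO1 against siNT (0.21, edgeR adjusted p = 0.0437) and IRF1 between siELMO1 and Mock (-0.22, adjusted p = 0.0394). No other member call changed with it. Leaving out 1 library also gained calls: IRF7 in siELMO1 against siNT at 0 h (without siNT replicate 2 or siELMO1 replicate 3), IRF3 between siELMO1 and Mock at 0 h and IRF7 for their difference of responses (without siELMO1 0 h replicate 3), IRF1 between siELMO1 and Mock at 24 h (without siELMO1 replicate 3), and IRF2 in siNT against Mock and siELMO1 against siNT at 24 h (without siNT replicate 3). Sums with overlapping genes, tried after seeing the data, reversed 5 values. IRF9 with ENSG00000259529 was -0.46 in siELMO1 against siNT at 0 h, -0.29 in siNT against Mock at 24 h (-0.13 and not called without Mock 24 h replicate 2, -0.24 and not called without siNT 24 h replicate 2) and 0.36 for the difference of responses between siELMO1 and siNT. With RNF31 added, siNT against Mock at 24 h was -0.14. IRF3 with BCL2L12 was -0.40 in siELMO1 against siNT at 0 h, a sum that holds the lower BCL2L12 level of siELMO1. The IRF1 to IRF2 log2 ratio in siELMO1 against siNT at 24 h was -0.042 without siELMO1 24 h replicate 3, and ranged up to 0.14 with another library left out. Counting only the 250 bases before the start gave shares of 6.88%, 6.57% and 4.82% of windows with ISRE core, GAS and NF-kB letters.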
